A study of Homo sapiens with 3 samples.

Results

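CRY1 is a cryptochrome, a repressor of the circadian clock, and its peaks in C4-2 prostate cancer cells included 622 promoter summits of a plain kind. Each lay within 1 kb of annotated transcription start sites (TSS) that all read from one DNA strand, and none had the hexamer CACGTG, the canonical E-box, wholly within 50 bp either side. These one-strand promoter summits without an E-box were 24.4% of the 2549 summits on chromosomes 1 to 22 and X. Every annotated transcript start counted as a TSS, including starts inside a longer gene. The summit is the base of highest read pileup in a peak, and the rule used its position, the annotation and the genome sequence, but no measured strength. C4-2 is an established human line that grows under castrate conditions. The cells were kept in hormone-proficient medium, the labels add only "Veh", and 2 CRY1 immunoprecipitation libraries and 1 input library were made from them. The authors called peaks on the immunoprecipitations combined, so each peak has 1 value and no replicate error, and no CRY1-depleted library was analysed here. All tests below compare peaks, which are not replicates of a condition, and their intervals cover the counting of peaks only. One cell line was used, and no expression data were analysed here that could check its identity or its clock phase.

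In the mammalian clock, the CLOCK and BMAL1 proteins bind E-boxes as a pair and switch on the period and cryptochrome genes, whose products return to these sites and repress them. Cryptochromes are known to reach chromatin largely through partner proteins. The E-box is also the site of MYC, MAX, USF and TFE factors, and near copies that differ at one base are known to be bound by related basic helix-loop-helix proteins, such as the E′-box of clock promoters. Core promoters also hold GC boxes, bound by SP and KLF zinc finger proteins.

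The strongest of these summits show what the windows looked like without the palindrome. The stretches below are 5′ to 3′ along the strand of the promoter in GRCh37, are centred on the summit unless bases in an annotated UTR were left out, and are shown because their peaks had the highest fold enrichments. Capitals mark hexamers one base away from the E-box. CAMKK1 (chr17:3795480-3795580, minus strand) and TXNIP (chr1:145438247-145438347, plus strand) held CACGCG, and PER3 (chr1:7844300-7844350, plus strand, up to the TSS) held it too. The lncRNA gene ENSG00000289923 (chrX:106920059-106920159, minus strand) held CATGTG, MTHFD1L (chr6:151187174-151187274, plus strand) held CAGGTG, GGA1 (chr22:38004388-38004488, plus strand) held CACGTT, the E′-box, and INAFM2 (chr15:40615658-40615758, plus strand) held none.
CAMKK1: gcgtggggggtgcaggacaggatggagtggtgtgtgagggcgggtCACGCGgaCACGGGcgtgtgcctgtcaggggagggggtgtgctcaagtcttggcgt
ENSG00000289923: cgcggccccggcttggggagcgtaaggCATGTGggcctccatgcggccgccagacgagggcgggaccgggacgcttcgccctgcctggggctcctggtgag
INAFM2: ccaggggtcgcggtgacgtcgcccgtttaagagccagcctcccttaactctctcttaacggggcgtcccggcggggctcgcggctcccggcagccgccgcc
TXNIP: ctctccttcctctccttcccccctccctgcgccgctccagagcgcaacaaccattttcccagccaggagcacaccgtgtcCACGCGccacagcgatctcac
MTHFD1L: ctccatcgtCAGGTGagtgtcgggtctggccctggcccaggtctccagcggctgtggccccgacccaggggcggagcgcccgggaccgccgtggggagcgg
PER3: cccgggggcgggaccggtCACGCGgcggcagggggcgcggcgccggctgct
GGA1: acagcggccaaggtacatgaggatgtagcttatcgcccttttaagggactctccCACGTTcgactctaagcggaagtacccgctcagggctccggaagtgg

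Clock promoters gave a second set, chosen after their values were seen and shown because clock genes are known CRY1 targets. At CRY2 (chr11:45868801-45868873, plus strand) the stretch outside the UTR held CACATG and the E′-box AACGTG a few bases apart, in capitals, and a further near copy, CAAGTG on the other strand, lay in the part of the window left out. At PER1 (chr17:8059825-8059868, minus strand) the capitals mark a whole E-box that straddled the edge of the window, with its midpoint 51.5 bp from the summit.
CRY2: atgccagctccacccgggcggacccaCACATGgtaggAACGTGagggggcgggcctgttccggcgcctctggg
PER1: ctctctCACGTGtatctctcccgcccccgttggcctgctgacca

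The distance limit of the rule passed close to other E-boxes. The members nearest to it were LINC01237, at a fold enrichment of 10.4, STMN1, at 5.52, and TYMP, at 3.87, whose E-boxes ended 51 bp from the summit. USP36, at 11.9, and ZSCAN2, at 6.91, had one that ended 50 bp away and were therefore not members. At the promoter limit, H2BC12 was 1000 bp from a TSS (fold enrichment 7.53) and MXI1 985 bp (5.68), while MAFK at 1012 bp (4.67) and WEE2P1 at 1019 bp (3.51) fell outside. Most members were not such edge cases. The nearest E-box was within 100 bp at 85 members (13.7%), and none lay within 1000 bp at 235 (37.8%). The sequences of LINC01237 (chr2:242824438-242824558) and ZSCAN2 (chr15:85143563-85143683), both plus strand with the E-box in capitals, show how little separated a member from a summit with an E-box at this limit.
LINC01237: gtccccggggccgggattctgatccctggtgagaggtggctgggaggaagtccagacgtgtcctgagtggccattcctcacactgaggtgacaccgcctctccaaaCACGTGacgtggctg
ZSCAN2: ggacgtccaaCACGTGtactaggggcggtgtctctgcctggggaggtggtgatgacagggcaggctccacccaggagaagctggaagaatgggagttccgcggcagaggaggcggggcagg

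Member peaks were weaker than their E-box counterparts as a class, yet included some of the strongest peaks in the list. Fold enrichment, the authors' linear ratio of pileup over background at the summit, ranged from 2.39 to 24.0 among members, around a median of 4.98, and its quartiles were 4.19 and 5.96. The 521 one-strand promoter summits with an E-box had a median of 5.85 (quartiles 4.73 and 7.70). At or above the median of all summits, 5.18, were 275 members (44.2%, 95% Wilson interval 40.4 to 48.1) against 337 summits with an E-box (64.7%, 60.5 to 68.7), an odds ratio of 0.433 (Fisher's exact test, two-sided, p = 1.32e-11 after adjustment over 6 comparisons). This difference was lost when the peak midpoint replaced the summit in the rule, with an odds ratio of 0.957 (Fisher's exact test, adjusted p = 0.796). Against summits that differ in the strand part of the rule, the comparison did not pass the test. Among the 298 summits without an E-box whose promoters had TSS on both strands, 41.6% (36.2 to 47.3) reached 5.18, an odds ratio of 1.11 (Fisher's exact test, adjusted p = 0.573).

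**Figure D1:**
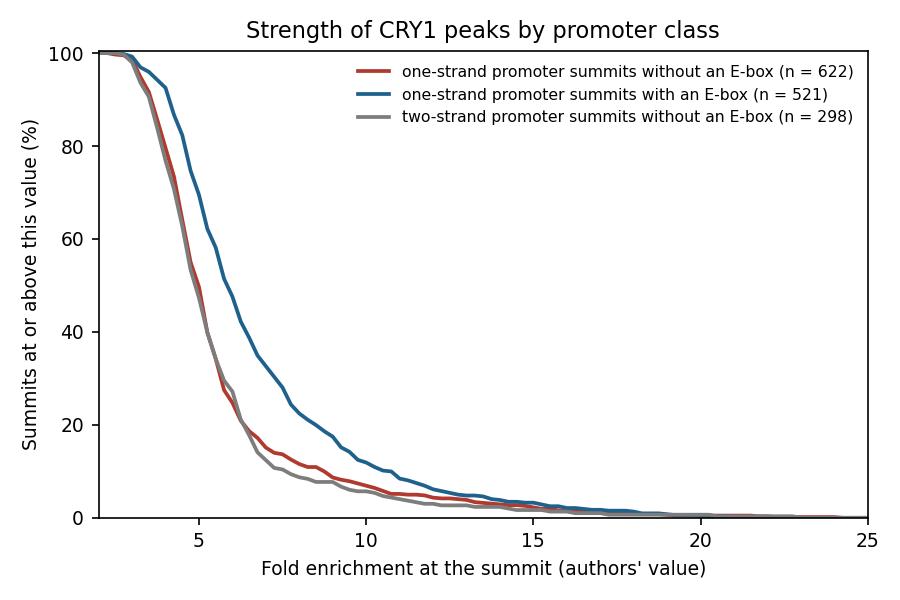
The percent of summits at or above each fold enrichment (x axis, linear ratio) is plotted for 622 one-strand promoter summits without an E-box, 521 with one, and 298 two-strand promoter summits without one. The curve with an E-box lies to the right, with a median of 5.85 against 4.98 and 4.87, and the curves without an E-box run close together.

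Width followed the same order. Members spanned 83 to 3503 bp, with a median peak width of 150 bp, against 293 bp for one-strand peaks with an E-box. At or above the 181 bp median of all peaks were 262 members (42.1%, 38.3 to 46.0) and 337 peaks with an E-box (64.7%, 60.5 to 68.7), an odds ratio of 0.397 (Fisher's exact test, adjusted p = 1.40e-13). With the midpoint in place of the summit the direction turned, to an odds ratio of 1.73 (Fisher's exact test, adjusted p = 0.000153), with median widths of 223 bp without and 158 bp with an E-box at the midpoint. With the whole peak searched for the E-box, where a wider peak has more sequence to hold one, it was 0.216. The widest member was PER1, whose peak spanned 3503 bp. The weakest member peaks were at TPRA1 (fold enrichment 2.83), FLCN (2.65), REPIN1 (2.44) and PDE4DIP (2.39).

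At the top of the list stood genes of several unrelated functions. CAMKK1, a calcium and calmodulin-dependent kinase kinase, had the highest fold enrichment, 24.0, at a summit 808 bp downstream of its nearest TSS, in an intron. That TSS, at base 3796338, is internal to the gene, which begins at base 3798185 on the minus strand. The lncRNA gene ENSG00000289923 followed at 22.2, and INAFM2 at 21.6, where the summit was 185 bp upstream. TXNIP, which inhibits thioredoxin and glucose uptake, had 19.2 at 193 bp upstream. MTHFD1L, an enzyme of mitochondrial one-carbon metabolism, had 18.8 at 144 bp downstream. PER3, a period gene of the clock, had 17.8 at a summit 1 bp before the start site. GGA1, a Golgi sorting adaptor, had 17.6, and CTDSP1, a phosphatase of the tail of RNA polymerase II, had 17.4. Next were TLE6 of the Groucho corepressor family (16.4), the sorting nexin SNX15 (16.1), the nucleolar chaperone NPM1 (15.5) and REEP4, which shapes the endoplasmic reticulum (15.5). In all, 72 members (11.6%) had a fold enrichment of at least 8, against 117 (22.5%) of the one-strand summits with an E-box and 26 (8.72%) of the two-strand summits without one. Of these 72, 31 (43.1%) had an E-box farther out but within 300 bp, and 40 (55.6%) had a single-mismatch E-box within 50 bp. Neither was found at 17 (23.6%), among them INAFM2 and CTDSP1. The shares over all members were near these. Their nearest E-box was up to 100 bp away at 13.7%, over 100 to 180 bp at 7.07% and over 180 to 300 bp at 25.1%. A single-mismatch E-box was at 51.4% of all members, and neither was found at 22.5%. Nothing about strength is read from these counts.

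Member summits lay about the TSS much as summits with an E-box did. The median distance was 180 bp (quartiles 64 and 343 bp), against 165 bp. Upstream of the nearest TSS were 366 members (58.8%, 54.9 to 62.6) and 302 summits with an E-box (58.0%, 53.7 to 62.1), an odds ratio of 1.04 (Fisher's exact test, adjusted p = 0.810). Within 200 bp of it were 340 (54.7%, 50.7 to 58.5) and 296 (56.8%, 52.5 to 61.0), an odds ratio of 0.916 (Fisher's exact test, adjusted p = 0.573). Neither comparison passed the test, which does not show that the positions were alike.

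**Figure D2:**
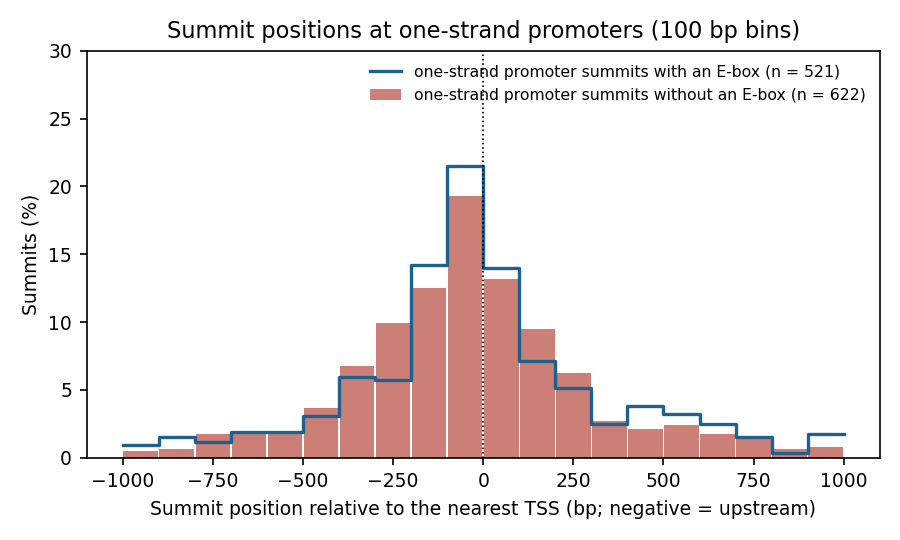
Summit positions relative to the nearest TSS are plotted in bins of 100 bp (x axis, bp, negative upstream) as the percent of 622 members (bars) and of 521 one-strand summits with an E-box (line). Both peak in the 100 bp just upstream of the TSS, with 19.3% of members and 21.5% of summits with an E-box.

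The nearest gene was protein-coding for 541 members (87.0%) and a lncRNA for 66 (10.6%), and 576 members (92.6%) had a single annotated gene within 1 kb. The summit base lay in an intron at 224 members (36.0%), outside annotated transcripts at 177 (28.5%), in a UTR at 120 (19.3%), in a coding exon at 53 (8.52%) and in an exon of a noncoding transcript at 48 (7.72%). Chromosome 1 held 58 members, chromosome 17 held 54 and chromosome 19 held 45. These counts were not set beside all summits or genes of each chromosome, and nothing is read from them.

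Hexamers that differ from the E-box at one base were common at these summits. At least one of the 9 such hexamers, each named with its letters in what follows and searched on both strands, lay within 50 bp of the summit at 320 members (51.4%, 47.5 to 55.4). Windows 1 kb upstream of the same summits held one in 28.3% and windows 1 kb downstream in 30.2%. The summit alone was positive in 222 pairs and the upstream window alone in 78 (exact McNemar test, adjusted p = 7.25e-17), and in 230 against 98 for the downstream window (exact McNemar test, adjusted p = 2.24e-13). At 19819 TSS of protein-coding genes, windows of the same length centred on the TSS base held one in 27.5%, and a true E-box in 3.30%. Single-mismatch hexamers were also present at 46.1% (240) of the one-strand summits that have an E-box, and 81 members (13.0%) held more than one kind. Within the windows 272 matches fell within 25 bp of the summit and 197 farther out. Median fold enrichment was 5.01 for members with such a hexamer and 4.86 for those without, a difference that was not tested.

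Of these near copies, 3 were found more often at member summits than in both flanks. CGCGTG, read CACGCG on the other strand and known as the class C site of HES-type repressors, was at 103 members (16.6%, 13.8 to 19.7), against 2.09% upstream and 2.73% downstream (exact McNemar test, adjusted p = 3.77e-18 and 2.07e-15 over 50 comparisons). CAMKK1 and TXNIP were the strongest members with it. CTCGTG, or CACGAG, which fits the N-box of the same protein family, was at 50 members (8.04%, 6.15 to 10.4), against 1.93% and 2.09% (exact McNemar test, adjusted p = 1.84e-06 and 1.88e-05), led by NPM1 and SLC27A5. The E′-box, AACGTG or CACGTT, was at 48 members (7.72%, 5.87 to 10.1), against 2.25% and 2.09% (exact McNemar test, adjusted p = 2.69e-05 for each flank), led by GGA1 and CRY2. All 3 were also above their shares at coding TSS, which were 5.89%, 2.52% and 1.5% in the same order. Among 566 hexamers found at 30 or more members, the ratio of the member share to the coding TSS share was highest for the E′-box, at 5.13, and next for the N-box hexamer, at 3.19, and it was 2.81 for the class C site. Between the last 2 came CTTAAA at 2.90, which is no E-box copy and whose shares in the flanks, 7.40% and 5.79%, were near its 7.72% at members.

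The other near copies did not pass against both flanks. CAGGTG, an E-box of the tissue-specific helix-loop-helix type, was at 90 members (14.5%), above the 8.68% upstream but beside 12.5% downstream. CATGTG was at 45 (7.23%), against 4.50% and 3.22%, and CCCGTG at 40 (6.43%), against 2.73% and 3.54%. Fewest were the hexamers GACGTG (20 members), then CAAGTG (16 members) and finally TACGTG (5 members). GACGTG was at 3.22%, against 2.41% upstream and 2.09% downstream. CAAGTG went the other way, at 2.57% against 6.11% and 4.82%, and passed against the upstream flank only (exact McNemar test, adjusted p = 0.0101 and 0.0871). TACGTG was also lower, at 0.804% against 1.45% and 0.965%. Summits with an E-box carried the near copies at shares that could not be told apart after adjustment. None of the 25 motifs differed between the classes at an adjusted p under 0.05 by Fisher's exact test, and 4 did at an unadjusted p under 0.05. These were the class C site (16.6% of members against 11.5%), the N-box hexamer (8.04% against 3.84%), the E′-box (7.72% against 4.22%) and the CCAAT box (9.97% against 5.95%), each higher at members. Two-strand summits without an E-box held them at 16.4%, 7.05%, 8.05% and 7.05% in the same order. The first 3 shares were thus near those of members, a comparison that was not tested.

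GC boxes were the most frequent motif. GGGCGG, the core that SP and KLF proteins bind, was at 247 members (39.7%, 35.9 to 43.6), against 9.65% upstream and 12.9% downstream (exact McNemar test, adjusted p = 4.27e-34 and 1.06e-25). Its share at coding TSS was 35.9%, near that of members. The longer GGGCGGGGC, which contains the GC box, was at 61 members (9.81%), against 1.13% and 1.29% in the flanks (exact McNemar test, adjusted p = 7.39e-11 and 2.70e-10) and 8.58% at coding TSS, led by UNKL and EFCAB14. GC boxes were spread through the window, with 174 matches within 25 bp of the summit and 187 farther out. The site of NRF1, a factor of nuclear genes for mitochondria, was searched as GCGCNTGCG and lay at 16 members (2.57%). This was above both flanks (0.482% and 0.161%, exact McNemar test, adjusted p = 0.0111 and 0.00106) but below its 5.24% at coding TSS, where windows are centred on the TSS base. SSBP4 and SPTBN4 were the strongest members with the NRF1 site.

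Base composition also differed between the summits and their flanks. The median GC content was 69.3% at member summits, 51.5% in the upstream and 56.4% in the downstream windows, 68.3% at one-strand summits with an E-box and 66.3% at coding TSS. The CpG ratio, observed over expected, was 0.804 at members, 0.367 and 0.459 in the flanks and 0.834 at coding TSS. The part of composition in the comparisons with flanks was not tested.

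A pair of AT-rich motifs went the other way. The TATA box, TATAAA, was at 3 members (0.482%), against 3.86% and 3.22% in the flanks (exact McNemar test, adjusted p = 0.000224 and 0.00174) and 5.18% at coding TSS. The androgen receptor half-site, AGAACA, was at 14 members (2.25%), against 5.79% and 6.91% (exact McNemar test, adjusted p = 0.00614 and 0.000473) and 3.37% at coding TSS. The ETS site CCGGAAG was at 18 members (2.89%), against 8.34% of coding TSS windows, and did not pass against both flanks. Coding TSS windows were centred on the TSS base, while member summits lay at a median of 180 bp from the nearest TSS. Both kinds of window thus cover different positions. The lower shares at members do not show that their promoters lack TATA, ETS or NRF1 sites. The D-box TTATGTAA, the clock motif of DBP, TEF and HLF, and the ZBTB33 site CTCGCGAGA were at 0 members (upper 95% Wilson bound 0.614%), where coding TSS had 0.0908% and 0.389%. The remaining motifs, which were the CCAAT box, CRE (TGACGTCA), YY1 (AAGATGGC), AP-1 (TGANTCA), forkhead (TGTTTAC), E2F (TTTCCCGC), KLF (CCACACCC) and receptor half-site (AGGTCA), lay between 0.482% and 9.97% of members and passed against neither flank.

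**Figure D3:**
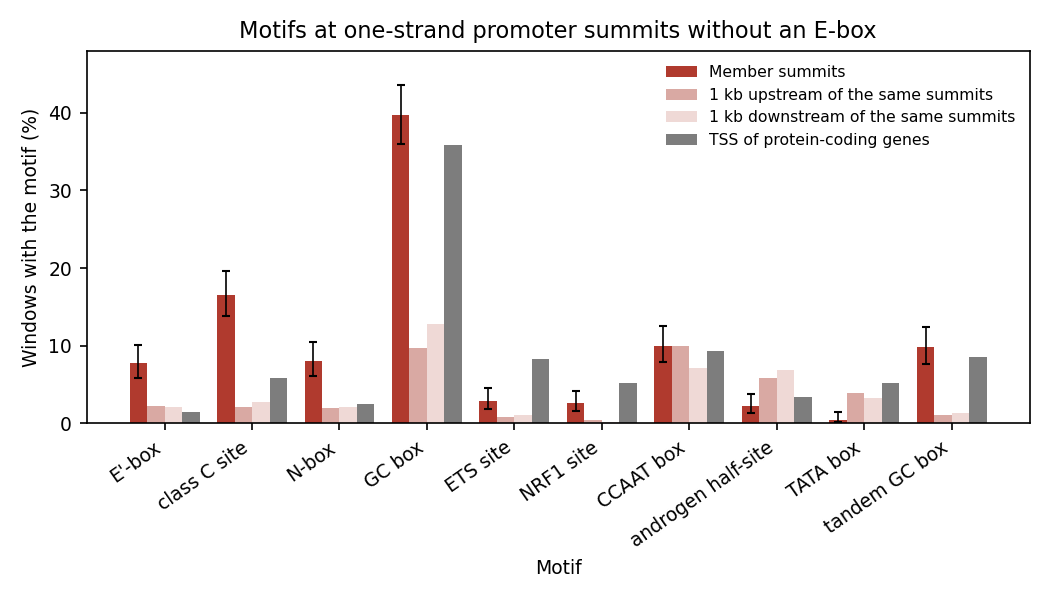
The percent of windows of 50 bp either side that hold a motif (y axis) is drawn for 622 member summits (with 95% Wilson intervals), for windows 1 kb upstream and 1 kb downstream of them, and for 19819 TSS of protein-coding genes. The E′-box, class C site and N-box stand above all 3 comparison bars, the GC boxes stand near their coding TSS bars, and the TATA box is lowest at members, 0.482%.

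Many members had a true E-box farther out or across the edge of the window. An E-box lay wholly within 200 bp of the summit, but not wholly within 50 bp, at 149 members (24.0%, 20.8 to 27.5), while zones of the same shape centred 1 kb upstream and downstream held one in 5.95% and 5.63%. It was at the summit alone in 143 pairs and upstream alone in 31 (exact McNemar test, adjusted p = 2.15e-18), and in 141 against 27 for downstream (adjusted p = 1.61e-19). Where the rule barred an E-box from the whole peak, 487 members were left and the excess fell to 3.29 percentage points (exact McNemar test, adjusted p = 0.0846), since that rule removes many of these E-boxes. With 100 bp in place of 50 bp barred the excess was 6.30 points (exact McNemar test, adjusted p = 0.000675), and with the midpoint in place of the summit 37.2 points, against 18.0 points in the main comparison. Among all members, whose median width was 150 bp, 135 (21.7%) had an E-box inside the called peak. The 72 strong ones were wider, with a median of 640.5 bp, and so had more sequence to hold one. Among these, 31 (43.1%) had an E-box inside the peak. TLE6 was one case, with an E-box midpoint 55.5 bp from its summit, and PER1 (51.5 bp), NPM1 (53.5 bp) and CAMKK1 (76.5 bp) were others.

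Farther out the E-boxes were not spread evenly. Counted in steps of 20 bp on both sides, they numbered 40 between 40 and 60 bp, fell to 6 between 100 and 120 bp, rose again to 52 between 220 and 240 bp and were at 12 between 300 and 320 bp. Per 100 bp and 100 members there were 12.5 E-boxes from 40 to 100 bp, 5.53 from 100 to 180 bp, 13.3 from 180 to 300 bp, 3.66 from 300 to 500 bp and 2.4 from 500 to 1000 bp. The step from 40 to 60 bp and the band from 40 to 100 bp reach into the barred zone, which lowers their values. Whether the second rise is higher than the first cannot be read from these values. The bands were drawn after the counts were seen, so no test is given. At 180 to 300 bp, 176 members (28.3%) had at least one E-box, and so had 29.5% of the two-strand summits and 24.1% of the summits over 1 kb from a TSS that lack an E-box, so the second rise was also seen in both other classes.

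**Figure D4:**
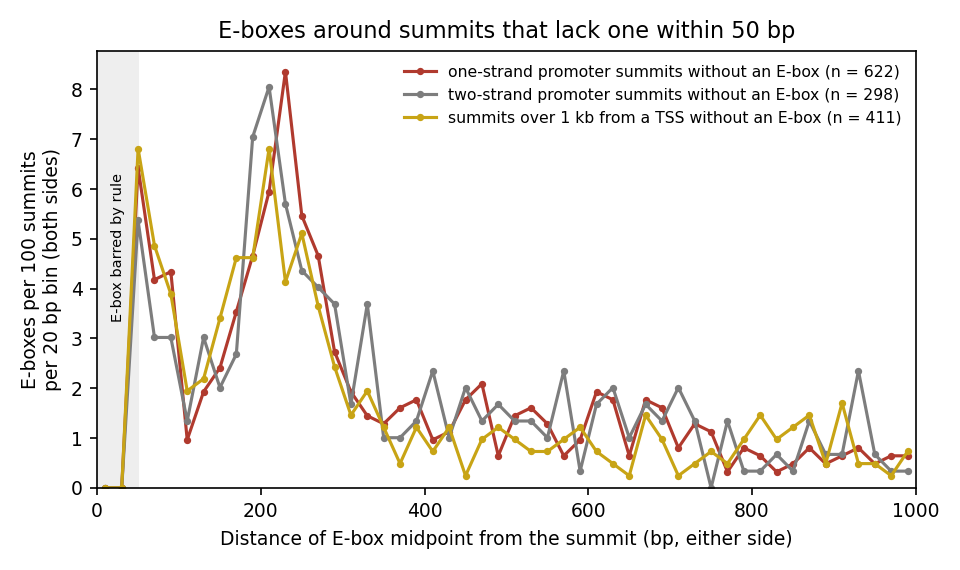
E-boxes per 100 summits in each 20 bp step (y axis) are plotted against the distance of the E-box midpoint from the summit (x axis, bp, both sides together) for members and for 2 other classes of summits without an E-box within 50 bp (two-strand promoters, and over 1 kb from a TSS). All 3 curves fall from the edge of the barred zone, shaded, to a low near 110 bp and rise to a second maximum between 200 and 240 bp.

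The 156 members (25.1%) with the nearest E-box at 180 to 300 bp had a median width of 135 bp and a median fold enrichment of 4.85. Another summit lay within 2 kb of 94 of them (60.3%), and at 66 (42.3%) a separate called summit sat at that E-box. With the nearest E-box over 300 to 1000 bp away, 102 members had a median width of 152.5 bp, another summit within 2 kb in 72.5% and a called summit at the E-box in 38.2%. Where the nearest E-box was within 100 bp, 85 members had a median fold enrichment of 5.33 and 14 of them reached 8. With no E-box within 1000 bp, there were 235 members (37.8%) with a median width of 138 bp and a median fold enrichment of 4.93, of which 29 reached 8 and 141 held a single-mismatch E-box. Members with neither an E-box within 300 bp nor a single-mismatch hexamer at the summit numbered 140 (22.5%), with a median fold enrichment of 4.94, and 17 of them reached 8.

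Clustering with other peaks set members apart from summits with an E-box. Another summit lay within 2 kb of 282 members (45.3%, 41.5 to 49.3), against 146 (28.0%, 24.3 to 32.0) of the one-strand summits with an E-box, an odds ratio of 2.13 (Fisher's exact test, adjusted p = 3.29e-09). The nearest such summit was another member at 145 (51.4%) and a one-strand summit with an E-box at 114 (40.4%), at a median gap of 293.5 bp (range 159 to 1948 bp). After peaks within 1 kb were merged, which by its construction removes the close pairs, the odds ratio was 1.62 (Fisher's exact test, adjusted p = 0.304). Neighbouring peaks share fragments and are not independent.

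In 5 cases a pair of members stood on opposite sides of a single E-box, each 180 to 300 bp from it. The genes were ARHGAP45, GNPDA1, TEF, PDE8A and CPNE7, and the summits of a pair were 434 to 532 bp apart (median 503 bp). At GNPDA1, PDE8A and CPNE7 a further called summit lay between them, and at ARHGAP45 and TEF none did. The E-boxes of the last 2 are shown with 30 bp or less on each side, in capitals, at chr19:1082198-1082258 for ARHGAP45 and chr22:41763236-41763296 for TEF, both plus strand. The TEF summits had fold enrichments of 3.92 and 5.84, and those of ARHGAP45 had 4.46 and 6.36.
ARHGAP45: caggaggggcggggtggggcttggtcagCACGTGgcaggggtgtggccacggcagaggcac
TEF: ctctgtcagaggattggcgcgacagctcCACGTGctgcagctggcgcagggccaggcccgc

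Some genes held many member summits. The 622 summits had 527 distinct nearest genes, and 77 of these genes had at least 2, together 172 members. MNT, a repressor that pairs with MAX at E-boxes, had 7, with fold enrichments from 3.17 to 14.8, spread over several annotated starts. MXI1, another MAX partner that opposes MYC, had 5, from 5.01 to 8.71, of which the strongest lay at a TSS base itself with an E′-box in its window and no E-box within the 3 kb searched. HNRNPF, a splicing factor, had 4.

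Among genes grouped by function, the circadian clock had the highest share with a member. As background, 453 of 20090 protein-coding genes, 2.25%, were the nearest gene of a member. Of 30 clock genes, 10 (33.3%) were. Clock genes are known targets of the cryptochromes, and the lists were chosen with results of these peaks known, so these shares are descriptions. PER3 had 3 members, at 17.8, 9.59 and 6.45. PER1 had 15.2 at 16 bp downstream of its TSS. HLF, a D-box factor, had 13.9 with a CACATG in its window, and CRY2, the sister cryptochrome, had 13.0. BHLHE40, which represses at E-boxes, had 10.2 with the E-box 260.5 bp away, and CSNK1E, a kinase of the period proteins, had 6.15 with the E-box 53.5 bp away. TIMELESS (6.05), TEF (5.84 and 3.92), NR1D2 (5.63) and BHLHE41 (4.65) completed the list. Some of these genes also had promoter summits with an E-box. These were PER1 at 17.8, NR1D2 at 17.8, TEF at 15.2, BHLHE41 at 7.99 and TIMELESS at 3.17. They can lie at another annotated start than the member. At TEF the one was at base 41777435 and the stronger member at 41763496, and at PER1 they were at 8055923 and 8059808. For PER3, HLF, CRY2 and BHLHE40 the promoter summits listed were members.

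Of 69 listed genes of DNA repair and damage signalling, 0 had a member, and beside a background share of 2.25% nothing is read from that count. Genes with roles in repair or damage signalling that the list did not hold did have members, such as RAD9A (fold enrichment 5.55) and POLE4 (4.68), which were chosen after their values were seen. XRCC3 and POLD2, which act in homologous recombination and in replication, had one-strand promoter summits that hold an E-box, at fold enrichments of 4.87 and 3.85.

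Genes that drive growth and metabolism had scattered members. Of 34 androgen receptor targets, 5 (14.7%) did, led by the ubiquitin ligase HERC3 (8.05), ZBTB10 (6.83), the transporter ABCC4 (5.18) and the stress-response gene NDRG1 (4.76), and the fifth was CAMKK2 (4.26). Among 54 cell cycle genes there were 3 (5.56%), the kinase CDK4 (10.01, with an E-box midpoint 49.5 bp from the summit), PLK3 (5.24) and the cyclin CCND3 (3.51). Of 43 genes of glycolysis and the hypoxia response, 6 (14.0%) had one, led by MXI1 (8.71), the pyruvate kinase PKM (5.35), the lactate dehydrogenase LDHA (5.01) and NDRG1. LDHA also had a stronger summit with an E-box, at 8.60, near another annotated start.

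Transcription factor lists were similar. Among 46 basic helix-loop-helix genes, 6 (13.0%) had a member, led by MNT (14.8), MXI1 (8.71), the Notch effector HES1 (7.88) and HES6 (6.53), followed by SREBF1, the sterol and lipid regulator (5.52), and MGA (4.46). Of 26 SP and KLF zinc finger genes, 3 (11.5%) did, which were KLF10 (8.81), KLF9 (5.90) and KLF15 (3.78). Of 48 nuclear receptors and coregulators, 3 (6.25%) did, the thyroid hormone receptor THRA (7.70), NR2F2 (4.39) and NR4A3 (3.66). Lysosome and autophagy genes, with 2 of 68 (2.94%, the chloride transporter CLCN7 at 7.45 and FLCN at 2.65), and ribosome and translation genes, with 1 of 40 (2.5%, NPM1), were close to the background share of 2.25%. Stronger promoter summits with an E-box were present at HES6 (9.49), NR2F2 (9.47), MGA (8.19), KLF15 (7.57) and FLCN (5.09). At MNT (7.18), THRA (5.52 and 6.07), SREBF1 (4.92) and NR4A3 (3.06) the summits with an E-box were weaker than the strongest member. Summits of a gene were matched by its name and can lie at different annotated starts. At MGA the summit with an E-box was at base 41913979 and the member at 41952865. At SREBF1 they were at 17739792 and, for the strongest member, 17716097.

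**Figure D5:**
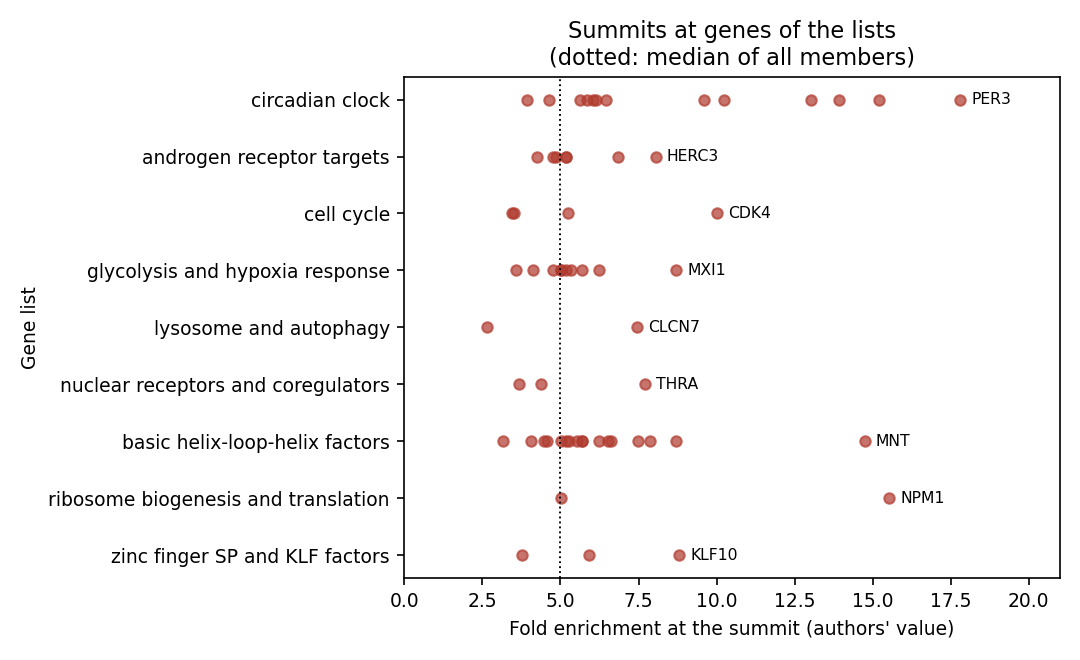
Each point is a member summit whose nearest gene is in the list named on the y axis, placed by its fold enrichment (x axis, linear ratio), with the strongest gene named and the median of all members, 4.98, dotted. Clock genes reach 17.8 and 5 of their 10 genes lie above 10, and DNA repair has no point and no line.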

How the data were processed

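CRY1 ChIP-seq of C4-2 cells comprised 2 immunoprecipitation libraries and 1 input, grouped by title. Per the study's methods, the authors aligned reads to hg19 (GRCh37) by bowtie2 with its defaults, then ran MACS2 on both immunoprecipitations together, keeping q < 0.05. Use of the input as control and handling of duplicates are not given in the sources used here. The deposited peak list gives each peak a fold enrichment (a linear ratio), a −log10 q-value and a summit offset, which is counted from the peak start. Sequencing depth is unknown from it, and the support of a peak in each replicate is not given by it.

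Summits were set against every GENCODE release 44 transcript start mapped to GRCh37, and E-boxes were searched in the GRCh37 sequence. Motifs were counted on both strands, so overlapping motifs can share bases. Classes of peaks were compared by two-sided Fisher's exact tests and summits with their own flanks by exact McNemar tests, both with Benjamini-Hochberg adjustment, and shares have Wilson 95% intervals (Python 3.11.15, numpy 2.4.6, scipy 1.17.1). A summit was given the gene of its nearest TSS. Named are the 12 members of highest fold enrichment, up to 4 genes of each list, the 2 strongest members of each motif above both flanks, the weakest members and those next to the limits of the rule. Others were named after their values were seen. These were CRY2 and PER1 as sequences, RAD9A, POLE4, the genes with most members and the pairs around 1 E-box. So were the remaining member genes of the clock, androgen receptor and basic helix-loop-helix lists. The members, lists and tests were chosen with earlier results of these data known. The counting steps were tested on simulated data. For 11 alternatives, each changing 1 choice, the counts and tests that the choice could change were computed again, while the distance bands, nearest-summit and pair descriptions were not.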

Additional observations from a re-analysis of the deposited data

How the results depend on the processing

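Across 11 alternatives and 122 recomputed values, all but 21 kept their direction and their side of the threshold. Requiring a fold enrichment of at least 5 left 309 members. With the peak midpoint in place of the summit, the odds ratio for fold enrichment against one-strand summits with an E-box was 0.957, that for width turned to 1.73 and that within 200 bp of a TSS to 1.04, and the cause was not tested. Merging peaks within 1 kb gave 1.62 for another summit within 2 kb, since merging removes close pairs. A search of the whole peak left an E-box excess of 3.29 percentage points between 50 and 200 bp, against 18.0, since it removes peaks with an E-box there. The excess was 6.30 with 100 bp for the E-box, which removes nearer E-boxes by construction, and 37.2 with the midpoint.

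Fold enrichment against two-strand summits changed direction without passing the test, to 0.845 with protein-coding transcripts only, 0.949 with 500 bp to a TSS, 0.985 at q < 0.01, 0.869 at a fold enrichment of at least 5, 0.991 after merging and 0.958 with −log10 q as strength. The share upstream of the TSS did so too, to 0.871 with protein-coding transcripts, 0.946 with 500 bp, 0.980 and 0.922 with 25 and 100 bp for the E-box, 0.921 with the whole peak and 0.904 with the midpoint. The count of motifs that differ from summits with an E-box rose from 0 to 1 in 3 alternatives, which was the class C site with protein-coding transcripts and the N-box hexamer with 100 bp or after merging, and the cause was not tested. Motifs above both flanks numbered 4 to 8, and the class C site, the N-box hexamer and both GC boxes were among them in each alternative. NRF1 was lost with 100 bp for the E-box, with flanks 500 bp away and at a fold enrichment of at least 5, which also lost the E′-box. No paired analysis was possible because the libraries were pooled before peak calling, and for the same reason no replicate could be left out.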

Other observations

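Outside the comparisons above, the 5 hexamers that exceeded the mean of both flanks most at member summits were all pieces of GC boxes, led by GGGCGG at 39.7% and GGCGGG at 38.3% of members. Hexamers rich in A and T stood out only against coding TSS, such as CCTTAA at 5.31% of members, against 1.96% of coding TSS and 4.02% and 3.38% in the flanks. Pooled calling, one cell line and unknown depth limit every value given here: no peak has a replicate error, and neighbouring peaks can be parts of 1 enriched region.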
